A study of Mus musculus with 6 samples.

Results

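The Slit genes encode secreted guidance ligands and the Robo genes their receptors, and the 6 genes described here are Slit1, Slit2, Slit3, Robo1, Robo2 and Robo3. They were taken by gene symbol from the 19938 genes that the arrays measured, each through its single probe set, and the family was chosen by a reading of these same data in which Slit2 had already stood out between the regions. The values of the 6 genes are therefore given as a description. RNA came from cultured neural stem cells of female mouse embryos (strain C57BL/6, wild type) at embryonic day 17.5, grown as floating cultures with FGF and EGF at 20 ng/ml each. The 2 groups were cultures started from the lateral ventricle's subventricular zone and cultures started from that of the third ventricle, with 3 arrays each. Neither the labels nor the design text tie an array to a named animal, so errors measure the spread between these cultures. The cultures were measured whole, and fewer cells of a type and less RNA per cell cannot be told apart.

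Slit proteins are large extracellular proteins with leucine-rich repeats, and they bind the outermost immunoglobulin domain of Robo1 and Robo2. Binding steers or repels growing axons and migrating neurons through GTPase-activating and actin-binding proteins inside the cell. In the forebrain, Slits made near the septum and choroid plexus guide the neuroblasts that leave the lateral ventricle wall for the olfactory bulb, and Slit-Robo signalling also acts in cortical progenitors. Robo3 differs from the other receptors in mammals, since it has lost strong Slit binding and takes Nell2 as a ligand. The microRNA miR-218 has a gene inside Slit2 and another inside Slit3, and it is known to repress Robo receptors.

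Sequences of miR-218 are shown because they tie both host ligands to one regulator of the receptors. RefSeq (GRCm38.p6) places the Mir218-1 hairpin at chr5:48223942-48224051 on the plus strand, inside the Slit2 gene and on its strand. The Mir218-2 hairpin is at chr11:35616816-35616925 on the plus strand, inside Slit3 and on its strand. In the hairpins, capitals mark the mature 5p arm. In the mature sequences, capitals mark the seed, bases 2 to 8.
Mir218-1 hairpin: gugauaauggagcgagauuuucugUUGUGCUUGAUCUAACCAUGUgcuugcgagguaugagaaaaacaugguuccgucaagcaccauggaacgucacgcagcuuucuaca
Mir218-2 hairpin: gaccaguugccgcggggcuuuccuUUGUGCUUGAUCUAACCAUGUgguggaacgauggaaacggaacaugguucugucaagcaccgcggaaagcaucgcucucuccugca
miR-218-5p, from either hairpin: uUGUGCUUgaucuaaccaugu
miR-218-1-3p: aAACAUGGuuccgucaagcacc
miR-218-2-3p: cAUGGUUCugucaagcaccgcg
The hairpins have the same base at 71 of 110 aligned positions without gaps, and the 5p arms at 21 of 21. Their 3p arms start at different bases and so have different seeds.

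All values are deposited log2 expression. As a gauge of background, the 95th percentile of 1027 olfactory receptor genes was taken in each array, and it lay between 5.03 and 5.16. Slit3, Robo1 and Robo2 lay above it in all 6 arrays, Slit2 in 4, and Slit1 and Robo3 in 0. Over all genes, the third ventricle arrays correlated with each other at 0.995, and lateral array 2 correlated with them at 0.991 but with lateral arrays 1 and 3 at only 0.980 and 0.982. These correlations run across genes of the same arrays and have no p.

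Among the ligands, Slit2 was higher in the third ventricle cultures. Its log2 values were 4.69, 5.34 and 4.69 in lateral arrays 1, 2 and 3, and 6.56, 6.43 and 6.32 in those of the third ventricle. The groups did not overlap, and the lowest array of the third ventricle stood 0.98 above the highest lateral one. Lateral arrays 1 and 3 lay below the background gauge, while lateral array 2 lay above it. The means were 4.91 ± 0.38 and 6.44 ± 0.12 (SD, n = 3), a difference of 1.53 (SE 0.18, 95% interval 1.11 to 1.95) or 2.89-fold. RMA can compress dim values, and Slit2 was known to stand out when the family was chosen. The effect of either on the fold was not tested. Only 10 of the genes measured had a larger positive difference, which made Slit2 the gene ranked 11 in that direction.

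**Figure D1:**
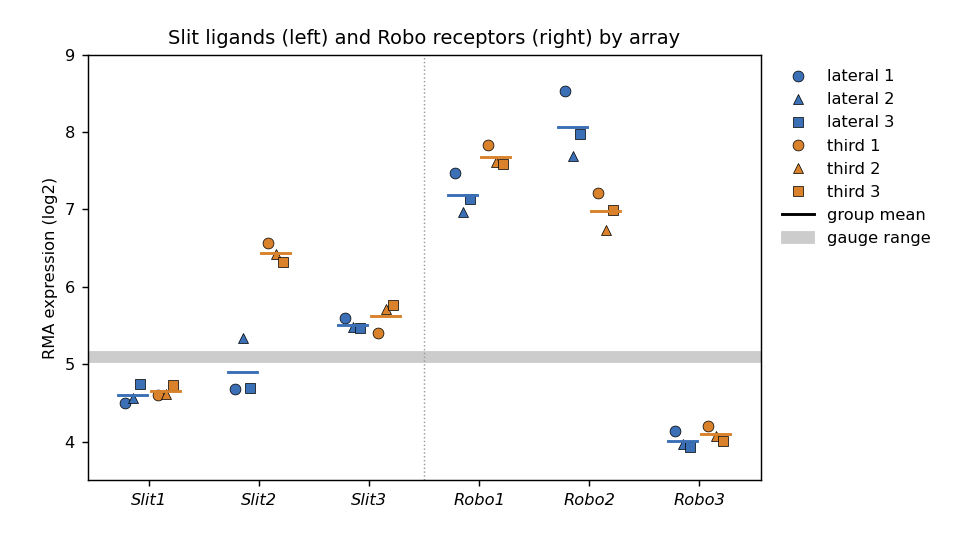
Log2 expression of the 6 genes in each array, with blue for the lateral and orange for the third ventricle, marker shapes for array numbers, short lines for group means (n = 3) and a grey band for the range of the background gauge (5.03 to 5.16). Slit2 and Robo1 are higher and Robo2 is lower in all 3 arrays of the third ventricle, while Slit1 and Robo3 lie below the band.

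Slit1, a ligand typical of nervous tissue, lay below the gauge throughout. Lateral arrays 1, 2 and 3 read 4.49, 4.57 and 4.74, and the third ventricle arrays 4.61, 4.62 and 4.73. The groups overlapped fully, and below the gauge such values have no dependable order. The difference was 0.05 (95% interval -0.18 to 0.28), which bounds only the signal of this probe set.

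Slit3, a ligand also found in mesenchyme and vessels, was just above the gauge in every array. It read 5.59, 5.48 and 5.46 in lateral arrays 1, 2 and 3 and 5.41, 5.71 and 5.76 in those of the third ventricle. Array 1 of the third ventricle was the lowest of all 6 and its array 3 the highest, so the groups overlapped. The difference was 0.11 (95% interval -0.16 to 0.38).

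The hairpins inside the ligand genes have probe sets of their own, whose sequences are given above. The Mir218-1 probe set read 4.69, 4.76 and 4.28 in lateral arrays 1, 2 and 3 and 5.09, 5.10 and 4.59 in those of the third ventricle. It exceeded the gauge in 1 of 6 arrays, and its groups overlapped through array 3 of the third ventricle. Its difference was 0.35 (95% interval -0.06 to 0.76; limma adjusted p = 0.462). Mir218-2, inside Slit3, lay below the gauge in all 6 arrays, with a difference of 0.06 (95% interval -0.17 to 0.29; limma adjusted p = 0.848). Probe sets of hairpins do not show the level of the mature microRNA.

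Among the receptors, Robo2 had the largest difference, and it was opposite in sign to that of Slit2. Lateral arrays 1, 2 and 3 read 8.53, 7.70 and 7.98, and those of the third ventricle read 7.22, 6.74 and 7.00. Every array of the third ventricle lay below every lateral one, with a gap of 0.48 between the nearest. The means were 8.07 ± 0.43 and 6.98 ± 0.24 (SD, n = 3), a difference of -1.09 (SE 0.22, 95% interval -1.58 to -0.59) or 2.12-fold. By size, Robo2 held rank 49 among negative differences. Lateral array 1 was the highest of its group, so the lateral range of 0.84 was wider than that of the third ventricle, 0.48.

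Robo1, the receptor most like Robo2 in structure and ligand binding, differed the other way. Its values were 7.47, 6.97 and 7.13 in lateral arrays 1, 2 and 3 and 7.83, 7.62 and 7.59 in those of the third ventricle. The groups did not overlap, but only 0.11 separated the highest lateral array from the lowest one of the third ventricle. The means were 7.19 ± 0.26 and 7.68 ± 0.13 (SD, n = 3), a difference of 0.48 (SE 0.14, 95% interval 0.15 to 0.81) or 1.40-fold. The intervals of Robo1 and Robo2, which are not adjusted for the number of genes, thus lay on opposite sides of 0. Neither gene was called (limma adjusted p = 0.289 for Robo1 and 0.133 for Robo2).

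Robo3, the receptor that lets commissural axons reach the midline, stayed below the gauge in all 6 arrays. It read 4.13, 3.97 and 3.94 in lateral arrays 1, 2 and 3 and 4.21, 4.07 and 4.00 in those of the third ventricle. The groups overlapped, and the difference was 0.08 (95% interval -0.15 to 0.31).

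Set side by side, all 3 ligands had a higher mean in the third ventricle cultures, but only Slit2 had an interval clear of 0. Of the 3 receptors, 2 had a higher and 1 a lower mean. The median difference was 0.11 over the ligands and 0.08 over the receptors, against -0.02 over all 19938 genes. In limma, which fitted all genes together with Benjamini-Hochberg adjustment and a threshold of 0.05, 1 of the 6 genes was called, Slit2. Of all genes, 0.231% were called, 0.145% as higher and 0.0853% as lower in the third ventricle cultures. The groups did not overlap in 3 of the 6, Slit2, Robo1 and Robo2, and in 17.0% of all genes. Because the family was chosen with the Slit2 difference known, nothing is read from these counts.

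The Slit2 call was lost without lateral array 1, lateral array 3 or any 1 of the third ventricle arrays, where its difference lay between 1.42 and 1.59, and it was kept without lateral array 2, where it was 1.75. Robo2 became a called gene without lateral array 2, with a difference of -1.27, and with array weights, at -1.14. Without lateral array 2, 8.25% of all genes were called. The number of called genes was then 1644, against 46 with all arrays. It was 25 without lateral array 1, 20 without lateral array 3, and 7, 4 and 4 without arrays 1, 2 and 3 of the third ventricle.

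**Figure D2:**
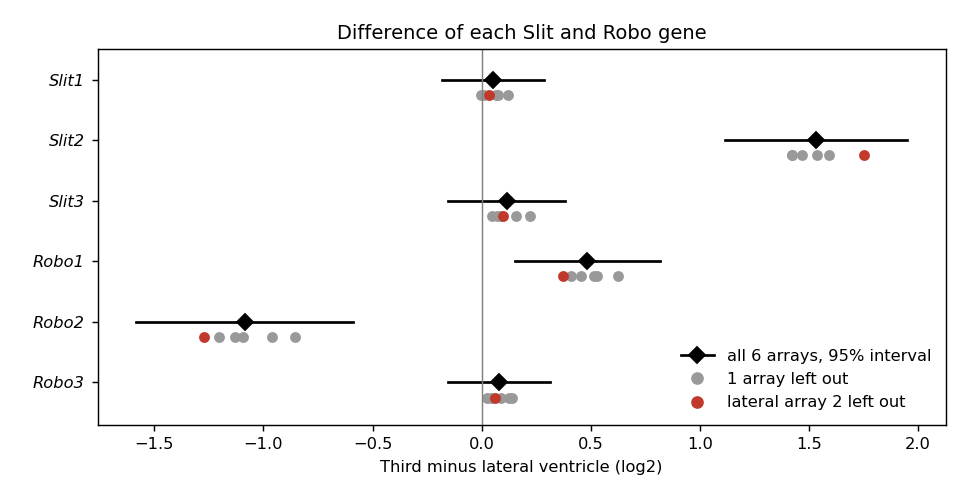
Difference on the log2 scale, the third minus the lateral ventricle, for each gene; diamonds and lines give the value and 95% interval from all 6 arrays, grey points the value with 1 array left out, and the red point the value without lateral array 2. Slit2 stays between 1.42 and 1.75 and Robo2 between -1.27 and -0.85, while Slit1, Slit3 and Robo3 stay near 0.

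Cell cycle markers differed among the lateral arrays and set lateral array 2 beside the third ventricle. All 9 measured had a higher mean in the third ventricle cultures, with a median difference of 1.03. In limma 0 were called and 7 had an unadjusted p below 0.05, beside 12.6% of all genes. Their summed linear signal ran from 3038 to 9019 in the lateral arrays and from 8867 to 8959 in those of the third ventricle. With each gene centred on its own mean, the list had a median of -1.19, 0.57 and -0.84 in lateral arrays 1, 2 and 3 and 0.49 to 0.57 in those of the third ventricle. Lateral array 2 thus matched the third ventricle arrays in cell cycle signal. From that array alone, with no lateral replicate, the third ventricle mean stood 1.09 higher for Slit2, 0.71 lower for Robo2 and 0.70 higher for Robo1. From lateral arrays 1 and 3 it stood 1.75 and 1.75 higher for Slit2, 1.55 and 1.00 lower for Robo2, and 0.20 and 0.55 higher for Robo1. The part of the cell cycle in these differences was not tested, and 1 array is no matched group.

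All 8 oligodendrocyte progenitor markers measured lay above the gauge in every array. Pdgfra (-1.79) and Lhfpl3 (-1.22) were called as lower in the third ventricle cultures, beside 0.0853% of all genes. The others were not called, and 4 of the 8 had an unadjusted p below 0.05 in limma, beside 12.6% of all genes. Gpr17 differed by -1.35 (95% interval -1.97 to -0.73) and Sox10 by -0.74 (-1.07 to -0.42). The intervals of Cspg4 (-0.09), Mbp (-0.12), Olig1 (0.17) and Olig2 (0.09) included 0. Over the 8 markers the median difference was -0.43. Their summed linear signal was 1798 to 1940 in the lateral arrays and 1206 to 1259 in those of the third ventricle. Bright genes weigh most in such a sum, and the 2 brightest, Olig1 (0.17) and Lhfpl3 (-1.22), differed in opposite directions. The sum is thus no measure of the list as a whole. Among 10 neuronal markers 0 were called and 5 had an unadjusted p below 0.05 in limma, beside 12.6% of all genes. Doublecortin (Dcx), a marker of neuroblasts, read 7.70, 6.41 and 6.86 in lateral arrays 1, 2 and 3 and 5.81, 5.27 and 5.003 in those of the third ventricle. Its groups did not overlap, with a difference of -1.63 (95% interval -2.38 to -0.88, limma adjusted p = 0.136). Tubb3 (-0.60), Elavl3 (-0.33) and Stmn2 (-0.31) had intervals below 0, Elavl4 (0.41) had one above 0, and Stmn2 lay below the gauge in all 6 arrays. The part of either cell type in the Robo2 difference was not tested.

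**Figure D3:**
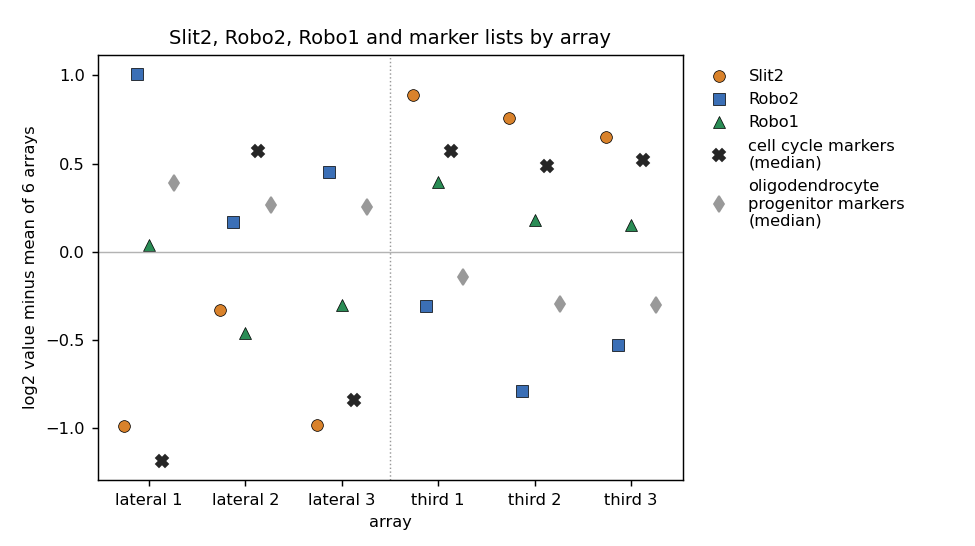
Log2 value of Slit2, Robo2 and Robo1 and the median of 2 marker lists in each array, each relative to its mean over the 6 arrays. Slit2 and Robo2 lie on opposite sides of 0 in every array, and the cell cycle markers of lateral array 2 (0.57) lie level with those of the third ventricle arrays.

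Other cell types that could supply Slit or Robo transcripts were read through markers as well. Floor plate markers come from a midline structure that secretes Slits. Their summed signal was 287 to 310 in the lateral arrays and 340 to 360 in those of the third ventricle. Spon1 and Ntn1 were the brightest of 6. In limma 0 were called and 2 had an unadjusted p below 0.05, beside 12.6% of all genes. Spon1 differed by 0.42 (95% interval 0.18 to 0.65), Foxa1 by 0.37 (0.08 to 0.67) and Ntn1 by 0.23 (-0.0024 to 0.46). The defining genes Shh and Foxa2 differed by 0.03 and -0.04, with Shh above the gauge in only 2 of 6 arrays and Foxa2 in 5. Meningeal and mural markers summed to 231 to 280 in the lateral and 292 to 343 in those of the third ventricle, with 0 called. Of the 8, 5 lay below the gauge in every array (Dcn, Lum, Pdgfrb, Rgs5 and Foxc1), and Acta2 and Col1a1 were the brightest. The median difference was only 0.02, with Acta2 at 0.77 (95% interval 0.24 to 1.30), Col1a1 at 0.05 and Col1a2 at -0.01. The part of either list in the Slit2 difference was not tested.

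In the remaining marker lists the summed signals of the groups overlapped, and 0 markers were called. Median differences were -0.04 for stem and progenitor markers, led by Fabp7 and Vim, -0.16 for neuronal markers, led by Map2 and Tubb3, and -0.08 for astrocyte markers, led by Sparcl1 and Aldoc. They were 0.03 for ependymal and tanycyte markers (Rarres2 and Ccdc153 brightest), -0.03 for choroid plexus markers (Otx2 and Folr1), 0.06 for endothelial markers (Flt1 and Robo4) and -0.03 for microglia and blood markers (Cx3cr1 and Tyrobp). Stem and progenitor markers were above the gauge in all arrays for 8 of 9 genes, beside 8 of 8 oligodendrocyte progenitor markers, 7 of 8 astrocyte markers and 55.3% of all genes. The choroid plexus gene Ttr, the endothelial genes Pecam1 and Cdh5 and the microglial genes Aif1 and Csf1r lay below the gauge in all 6 arrays. Over the 10 lists without a call, 18 of 78 markers had an unadjusted p below 0.05 in limma, 7 of them cell cycle markers, beside 12.6% of all genes.

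Of the other genes in Slit-Robo signalling, 63 of 64 listed were measured. In limma 1 was called as higher and 0 as lower in the third ventricle cultures, beside 0.145% and 0.0853% of all genes. At an unadjusted p below 0.05 there were 13, 9 higher and 4 lower, beside 12.6% of all genes. The median difference was 0.05 over the 63 genes, and 0.03 to 0.07 with any 1 array left out, and the groups did not overlap in 25.4% of them, beside 17.0% of all genes. Without lateral array 2, 3 were called, all higher (Nrp1, Sdc3 and Cap2), beside the 8.25% of all genes given above.

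The called gene was among the co-receptors, binding partners and turnover factors of Robo. It was Nrp1, neuropilin 1, a semaphorin and VEGF receptor that also interacts with Robo1. Nrp1 read 6.05, 6.01 and 5.87 in lateral arrays 1, 2 and 3 and 6.73, 6.67 and 6.75 in those of the third ventricle. The groups stood well apart, and the difference was 0.74 (SE 0.09, limma adjusted p = 0.0316). This call was lost without lateral array 1 (adjusted p = 0.0635), lateral array 3 (0.0899) or arrays 1 (0.160), 2 (0.187) and 3 (0.245) of the third ventricle, with differences of 0.69 to 0.78.

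The 18 other co-receptors and partners were not called. Of the 19 in the list, 7 had an unadjusted p below 0.05 in limma, 5 higher and 2 lower, beside 12.6% of all genes. The groups did not overlap in 36.8% of the list, beside 17.0% of all genes. Sdc3, a heparan sulfate proteoglycan of the class that helps Slit bind Robo, differed by 0.58 (95% interval 0.16 to 0.99, limma adjusted p = 0.302). Its lateral array 2 read 6.57, above array 2 of the third ventricle at 6.56, so the groups overlapped. The netrin receptor Dcc, which Robo1 can silence, differed by -0.50 (-0.92 to -0.08, adjusted p = 0.349), and the second neuropilin Nrp2 by 0.46 (0.15 to 0.76, adjusted p = 0.282). The genes with the highest signals act in turnover of receptors. The ubiquitin ligase Nedd4 differed by 0.09, its adaptor Ndfip1 by -0.07 and the deubiquitinase Usp33, which binds Robo1, by -0.13. Robo4, the endothelial family member, differed by 0.01 (95% interval -0.26 to 0.27) and stayed just above the gauge. It is named here as the remaining Robo gene, after its value was seen.

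Effectors inside the cell carry the Robo signal to actin, and 0 of 25 were called (2 at an unadjusted p below 0.05 in limma, beside the 12.6% of all genes given above). Cap2, a cyclase-associated protein that binds actin, had the largest difference. It read 7.08, 7.78 and 7.53 in lateral arrays 1, 2 and 3 and 8.34, 8.43 and 8.40 in those of the third ventricle. The groups did not overlap, with a difference of 0.93 (SE 0.17, limma adjusted p = 0.0972), and it was called without lateral array 2, at 1.09, and with array weights, at 0.97. Srgap2, a Slit-Robo GTPase-activating protein, differed by 0.47 (95% interval -0.15 to 1.08) and Abl1, a kinase that phosphorylates Robo, by 0.23 (-0.15 to 0.61). Rac1 and Cdc42, which act on actin, were among the brightest of the list and differed by 0.20 and 0.21.

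Transcription factors tied to Slit or Robo expression gave 0 calls of 19, beside 0.231% of all genes. In limma 4 had an unadjusted p below 0.05, beside 12.6% of all genes. The groups did not overlap in 26.3% of the list, beside 17.0% of all genes. Below the gauge in every array lay 7 of the 19. Hes1, a Notch target, differed by 0.50 (95% interval 0.18 to 0.83, limma adjusted p = 0.276). The LIM factor Lhx2, which regulates Robo genes in thalamic neurons, differed by -0.41 (-0.70 to -0.11, adjusted p = 0.304). Foxa1, a forkhead factor of the floor plate, differed by 0.37 (0.08 to 0.67, adjusted p = 0.335) but was above the gauge in only 2 arrays. The brightest members were Pou3f2 (0.19), Pax6 (-0.31) and Nkx2-2 (0.13).

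**Figure D4:**
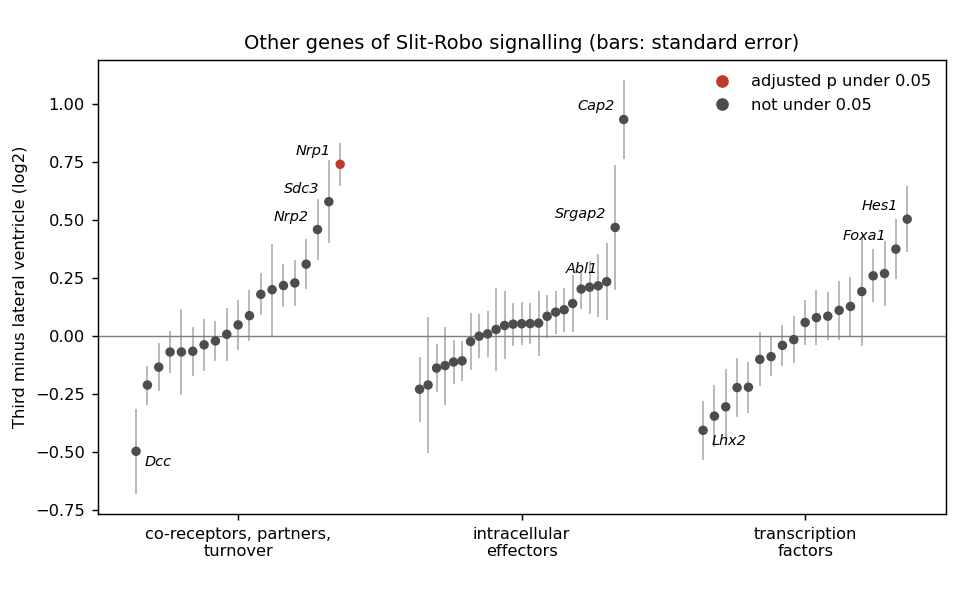
Log2 difference, the third minus the lateral ventricle, of each of 63 further genes of the signalling pathway, ordered by size within 3 lists; bars give the moderated standard error, and the red point marks the gene called by limma. Nrp1 (0.74) is the called gene and Cap2 (0.93) the largest difference.

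Genes whose pattern over the 6 arrays was most like that of a Slit or Robo gene were sought among 4333 other genes (4334 for Slit3) with a range of at least 0.5 that exceeded the gauge in at least 3 arrays. The correlations are descriptions over 6 arrays that fall into 2 regions, so they hold the regional difference itself. Closest to Slit2 were Prkcb, a protein kinase C (r = 0.994), Fndc3c1 (0.994), the coactivator Eya4 (0.989), the fucosyltransferase Fut8 (0.988) and Ildr2 (0.986). Most opposite were Kiz (-0.998), a centrosomal protein, the flippase Atp9a (-0.991) and Ppfibp1 (-0.990), a liprin. In each of these 8 genes the groups did not overlap, as in Slit2 and in 17.0% of all genes. Choice by correlation with Slit2 favours such genes, so nothing is read from this. The differences of the 8 genes ran from -0.97 for Ppfibp1 to 2.23 for Fndc3c1.

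For Robo2 the closest were Gdap1l1 (r = 0.997), the lysosomal sulfatase Arsb (0.996), the ketone body enzyme Bdh1 (0.992), Mfsd1 (0.992) and Plppr1 (0.992), a membrane protein of neurites. The ciliary gene B9d1 (-0.996), the secreted matrix protein Ccbe1 (-0.995) and the transcription factor Rfx4 (-0.995) were most opposite. Plppr1 had a difference of -1.29, close in size to that of Robo2, and Ccbe1 one of 0.84. Robo1 was nearest to Igfbp5 (r = 0.981), a binding protein of insulin-like growth factors, then Ralgps2 (0.969) and the small GTPase Rnd3 (0.960). Next came the matrix protein Sparcl1 (0.954), which is also in the astrocyte list, and Tmem47 (0.953). Farthest from Robo1 were Gbp3 (-0.981), Nxph1 (-0.979) and Stard13 (-0.960). Slit3, whose arrays spanned little, had weaker neighbours, Ppip5k1 (0.923), Frmd6 (0.894), H2-Ab1 (0.867), Ccl2 (0.841) and Thrsp (0.838), with Gal3st2c (-0.916), St3gal3 (-0.910) and Rom1 (-0.905) at the other end. The lists of Slit2, Robo2, Robo1 and Slit3 shared 0 genes.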

How the data were processed

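Total RNA was labelled after NuGEN WT-Ovation Pico amplification, per the labels' protocols. The authors deposited log2 expression per probe set. The submitters' processing notes name RMA and Affymetrix Expression Console 1.1. No build is named there. Amplification from little RNA can add spread, and the number of arrays limits precision.

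Of 35556 probe sets, 21789 had 1 gene symbol in the platform annotation, and the one with the highest mean over the 6 arrays stood for its gene. Arrays were grouped by title and compared with limma 3.58.1 in R 4.3.3 (lmFit, eBayes, Benjamini-Hochberg over all genes, threshold 0.05). The steps were run on simulated data with independent noise per gene. Such data hold no array that departs in many genes at once, as lateral array 2 does, so they do not test that setting. The members, lists and naming rule were chosen with earlier results of these data known. The rule names all members, called pathway genes, per list the 3 largest and 3 brightest uncalled ones, 2 brightest markers per list, and the 5 most and 3 least correlated genes of each member above the gauge in at least 3 arrays, without predicted, olfactory and histone genes. An item the rule names is not reported here. Alternatives covered probe sets, dim genes, normalization, variance prior, weights, replicate block and each array left out.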

Additional observations from a re-analysis of the deposited data

How the results depend on the processing

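Slit2 was called in all 7 alternatives that kept every array (1.53 to 1.62) and in 1 of 6 that left out an array (1.42 to 1.75). Robo2 was called with array weights (-1.14), with the replicate number as a block (-1.09) and without lateral array 2, in a range of -1.27 to -0.85 over the arrays left out. Slit3 (0.05 to 0.22), Robo1 (0.37 to 0.63) and Robo3 (0.02 to 0.14) kept their sign and stayed uncalled when any array was left out, and Slit1 ran from -0.0031 to 0.12. The members have 1 probe set each, so the choice of probe set could not move them. Slit1 and Robo3 fell below the filter on the lowest 40% of genes.

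The number of genes called, 46, was 158 with array weights and 4 to 1644 without 1 array. Of the 63 pathway genes, 2 were called with array weights, 0 with the replicate block, which lost Nrp1, and 0 to 3 without 1 array. Sign changes of small differences occurred for Ndfip1 (range with 1 array left out -0.13 to 0.0046), Nedd4 (-0.0052 to 0.15) and Pou3f2 (-0.059 to 0.34) without lateral array 3, for Nkx2-2 (-0.0036 to 0.20) without lateral array 2, and for Slit1 without lateral array 1. The cause was not tested.

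Arrays share only a replicate number. Deviations from the group means correlated at 0.24, 0.11 and 0.07 in the same-numbered pairs, and 6 of 6 arrays correlated best with their own number, a hint from the data and not the design. The replicate block gave 57 called genes.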

Other observations

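The Slitrk genes encode neuronal membrane proteins whose leucine-rich repeats resemble those of Slits. They were outside the lists and were added after other values had been seen. Slitrk4 read 6.11, 6.21 and 6.08 in lateral arrays 1, 2 and 3 and 5.44, 5.52 and 5.45 in those of the third ventricle. The groups stood apart, with a difference of -0.66 (SE 0.09, limma adjusted p = 0.0367). This call was not followed with arrays left out, where the Slit2 and Nrp1 calls were mostly lost. Slitrk3 differed by -0.43 (95% interval -0.67 to -0.19, adjusted p = 0.214) and exceeded the background gauge in 3 of 3 lateral arrays but in 0 of 3 from the third ventricle. Slitrk2 differed by -0.47 (-0.93 to -0.02, adjusted p = 0.381), while Slitrk1 (0.13) and Slitrk5 (-0.06) had intervals that include 0. Slitrk6 was below the gauge in all 6 arrays.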
